A study of Mus musculus with 6 samples.

Results

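The 10 genes described here are Yap1, Wwtr1, Tead1, Lats2, Amotl2, Ajuba, Ccn1, Ccn2, Ankrd1 and Axl, which encode the coactivators YAP and TAZ, a DNA-binding partner, regulators of the pathway and widely used target genes. They were chosen by name, and each name matched 1 of the 55357 genes in the table. Primary astrocytes came from the cortex of C57BL/6 mouse embryos at embryonic day 18 and were grown first with serum and then in a B-27 medium with HB-EGF, a ligand of the EGF receptor. In the BRAF K499E-transfected group (KE, 3 cultures), the cells received a CMV-FLAG-BRAF KE plasmid, in which the CMV promoter drives the tagged mutant kinase, and RNA was taken 48 hours after transfection. For immunostaining of such astrocytes, the paper gave this plasmid together with a GFP plasmid. Its text does not say whether the RNA cultures also received the GFP plasmid. The comparison group (NT) was 3 nontransfected cultures. K499E is a substitution in the BRAF kinase that is found in RASopathies, and the comparison asks which transcripts differ in astrocytes that express it. Among the samples there was no empty plasmid or BRAF WT, so the mutant kinase, the amount of BRAF and the transfection itself cannot be told apart. The share of cells that took up the plasmid is not given in the sources used here.

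The labels matched the measured Braf in all 6 cultures, with normalized counts of 34933 to 40978 in KE and 811 to 946 in NT. Of 10 astrocyte markers, 9 were at 1210 or more in every culture, while S100b was at 11.8 to 31.5. Their summed level was 150288 to 152751 in KE and 109516 to 114729 in NT. Gfap, Slc1a3 and Aldh1l1 were among the 6 called higher by the limma test described further on, and Gja1 (log2 fold change, log2FC, of -0.46) and Fgfr3 (log2FC -0.23) were called lower. All 13 microglia markers were called lower in KE, and their sum was 4949 to 6890 in KE and 41015 to 47443 in NT. Of 8 oligodendrocyte lineage genes tested, 7 were called lower, with a median log2FC of -0.65, and their summed level, most of it Olig1, had a KE to NT ratio of 0.8. Of 5 neuronal genes tested, 1 was higher and 1 lower (ratio 0.758, most of the sum from Map2). Of 4 endothelial genes none was higher and 2 were lower (ratio 0.637, most of the sum from Flt1). Of 8 mesenchymal genes, 4 were higher and 2 lower (ratio 1.05). Of all genes tested, 25.3% were higher and 26% were lower. Of the defining markers, Cldn5 was listed at 0 in every culture but 1, and Mog in every culture but 2. In bulk RNA, fewer cells of a type and less RNA per cell cannot be told apart, and the part of these shifts in the results that follow was not tested.

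YAP and its paralog TAZ do not bind DNA themselves. They enter the nucleus when the Hippo kinase cascade is quiet and activate genes through the TEAD factors. When the cascade is active, the LATS kinases phosphorylate YAP and TAZ, which are then held in the cytoplasm or degraded. In astrocytes the pathway is known from work on proliferation and reactive gliosis. The RNA levels given here do not measure phosphorylation or nuclear entry. The TEAD factors recognize the hexamer GGAATG, which reads CATTCC on the other strand. RefSeq promoter windows (GRCm38.p6, from 250 bases before to 50 after an annotated start) were found for 8 of the 10 genes, in 10 windows, and not for Tead1 and Ccn2. The hexamer was present on one strand or the other in at least 1 window of all 8 genes, and in 9 of the 10 windows, against 14.7% of all 32851 windows. Both Wwtr1 windows overlap, and the same copy is counted in each. Because several of these genes are in textbooks as TEAD targets, and the same letters occur by accident, these matches only describe the sequence.

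The 250 bases before the start are shown for the genes with a promoter window that differed between KE and NT, in gene orientation, with the hexamer in capitals. The windows lie at chr3:145649986-145650235 for Ccn1, chr14:54577662-54577911 for Ajuba, chr3:57575911-57576160 for Wwtr1 and chr7:25788734-25788983 for Axl, each on the minus strand of GRCm38.p6.
Ccn1: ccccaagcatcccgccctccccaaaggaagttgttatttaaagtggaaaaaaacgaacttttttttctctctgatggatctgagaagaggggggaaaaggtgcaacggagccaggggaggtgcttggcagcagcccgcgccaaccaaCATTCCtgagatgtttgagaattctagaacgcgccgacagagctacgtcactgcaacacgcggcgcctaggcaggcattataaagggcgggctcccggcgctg
Ajuba: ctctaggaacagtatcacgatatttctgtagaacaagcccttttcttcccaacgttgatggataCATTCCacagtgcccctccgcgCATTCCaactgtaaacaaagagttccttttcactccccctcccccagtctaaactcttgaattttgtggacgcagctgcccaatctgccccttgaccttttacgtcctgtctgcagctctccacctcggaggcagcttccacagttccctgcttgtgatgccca
Wwtr1: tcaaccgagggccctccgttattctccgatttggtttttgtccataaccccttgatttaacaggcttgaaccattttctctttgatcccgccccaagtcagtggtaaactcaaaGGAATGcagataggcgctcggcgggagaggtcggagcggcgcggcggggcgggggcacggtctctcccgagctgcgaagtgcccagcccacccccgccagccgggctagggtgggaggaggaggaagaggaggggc
Axl: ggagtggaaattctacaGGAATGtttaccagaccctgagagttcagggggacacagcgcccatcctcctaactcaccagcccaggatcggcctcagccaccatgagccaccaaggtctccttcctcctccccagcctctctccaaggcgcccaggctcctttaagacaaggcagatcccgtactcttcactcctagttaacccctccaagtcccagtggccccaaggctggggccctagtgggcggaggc
The hexamer begins 103 bases before the start in Ccn1, 136 in Wwtr1 and 233 in Axl, and Ajuba has 2 copies, which begin 186 and 164 bases before it.

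For the genes that were not called or not tested, a stretch of 26 bases is shown, to allow the flanks to be compared. It surrounds the hexamer nearest the window's 5′ end. It lies at chr9:8004722-8004747 (Yap1), chr14:57746104-57746129 (Lats2) and chr19:36120039-36120064 (Ankrd1) on the minus strand and at chr9:102717729-102717754 (Amotl2) on the plus strand of GRCm38.p6.
Yap1: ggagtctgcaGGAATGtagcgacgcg
Lats2: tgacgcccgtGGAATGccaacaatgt
Ankrd1: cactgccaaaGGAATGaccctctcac
Amotl2: gaaactctcaCATTCCtggcatagca
Ankrd1 has a further copy 123 bases before its start. In Lats2 the hexamer lies just after the start of 1 window, and the other Lats2 window has none. Counted by gene, 16.6% of all genes with a window hold the hexamer. Among the related lists it was found for 4 of 6 other TEAD and VGLL genes with a window, 2 of 4 binding proteins, 5 of 12 SRF and actin genes, 3 of 12 Hippo kinases and scaffolds, 2 of 10 further YAP/TAZ targets, 0 of 4 TAM receptors and ligands and 0 of 1 CCN gene. Neither the AP-1 site TGANTCA nor the SRF CArG box, searched on both strands, was found in the windows of the 8 genes, against 7.81% and 1.63% of all windows. Over all tested genes with a window, 27.8% of those with the hexamer were called higher in KE and 24.6% lower, and of those without it 26.4% were called higher and 26.7% lower.

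**Figure D1:**
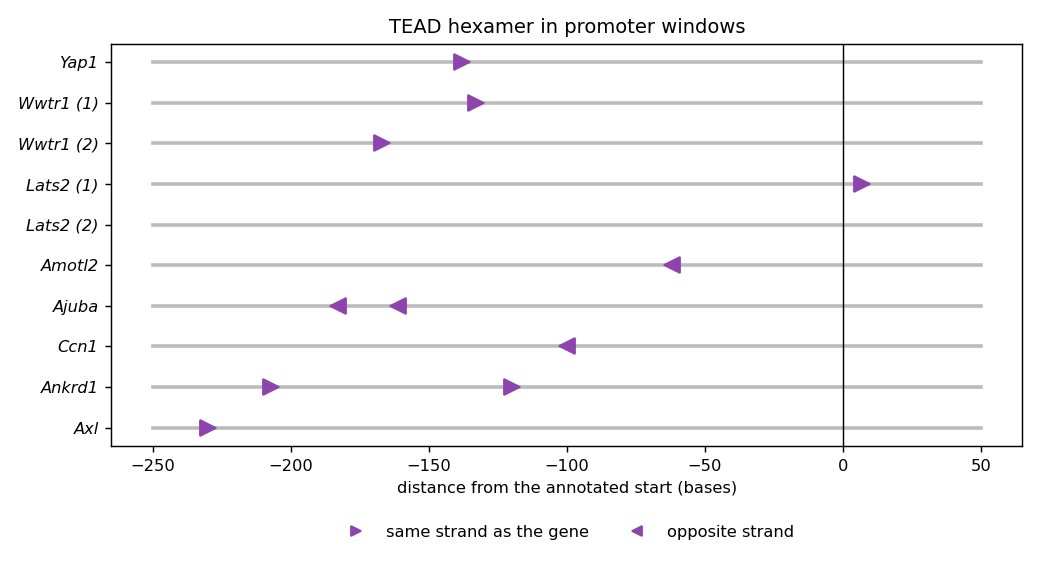
Position of the TEAD hexamer GGAATG (either strand) in the RefSeq promoter windows of 8 genes. The x axis is the distance in bases from the annotated start, each line is 1 window, and each triangle is 1 hexamer pointing along its strand. Of the 10 windows, 9 hold at least 1 copy, and both Wwtr1 windows overlap and show the same copy.

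Ccn1, Ccn2 and Ajuba were lower in KE than in NT, and Axl and Wwtr1 were higher. The remaining 4 tested genes, Yap1, Tead1, Lats2 and Amotl2, did not pass the test, and Ankrd1 was almost undetected in both groups. The test was limma on log2(normalized count + 1) over all 15280 genes with a mean of at least 10, two-sided, and a gene was called at an adjusted p under 0.05 after Benjamini-Hochberg adjustment over all of them. Every log2FC is KE minus NT on that scale. Of the 9 genes tested, 5 were called, where 51.3% of all genes were. In KE, 2 were higher, where 25.3% of all genes were, and 3 were lower, where 26% of all genes were. KE and NT values did not overlap for 6 of the 9, where 59.9% of all genes showed no overlap. All KE values lay above all NT values for 3 of the 9, where 30.1% of all genes did so, and below them for 3, where 29.9% did so. The shares among the 9 are thus near those of the whole table. The median log2FC of the 9 genes was -0.09, and that of all tested genes was 0.002. Any one gene on its own could reach a two-sided p of 0.1 at best by exact permutation of 3 and 3 cultures. The cultures are separate samples in the labels, but whether they came from separate litters is not stated. The p-values thus rest on the spread between these cultures. For each gene, limma pulls that spread toward the one usual for genes of similar level.

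**Figure D2:**
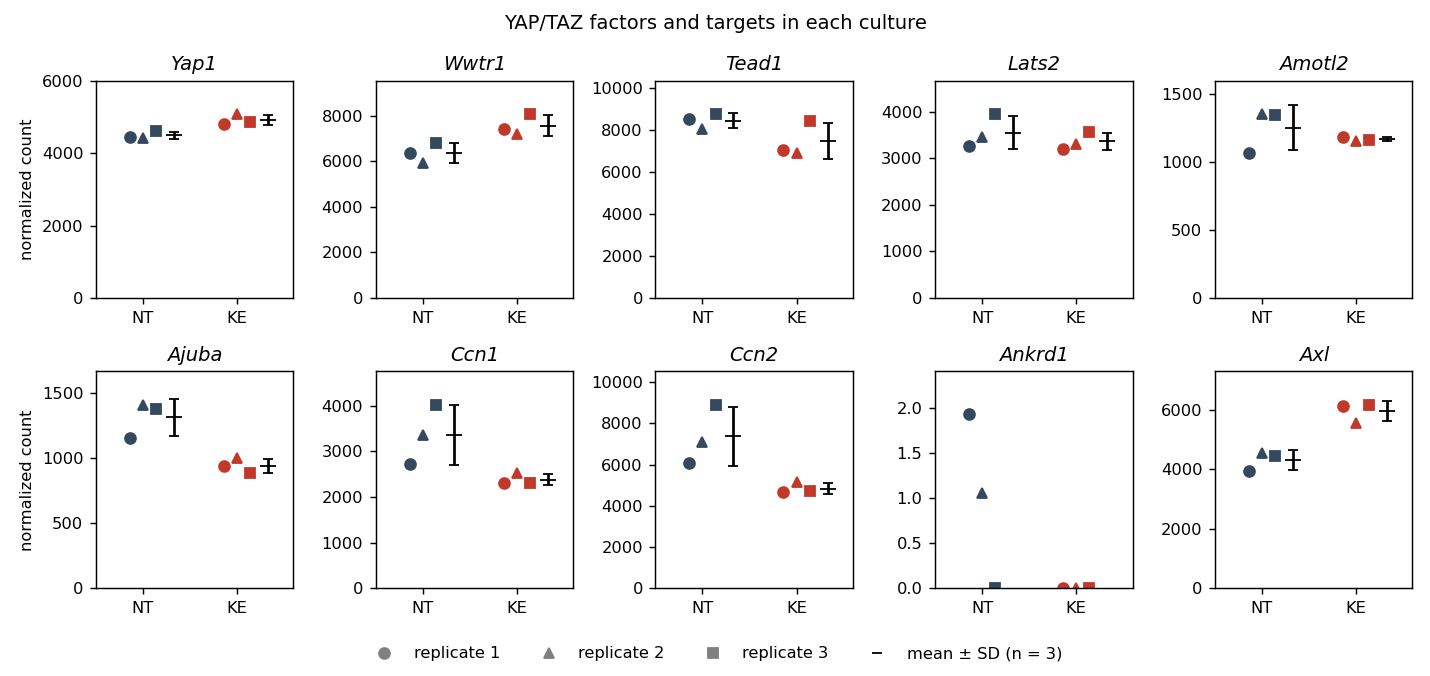
Normalized count of each of the 10 genes in every culture (y axis, from 0, with its own scale per gene) in NT and KE. Each symbol is 1 culture and the bar is the mean ± SD of 3, left out for Ankrd1. The groups are apart for Yap1, Wwtr1, Ajuba, Ccn1, Ccn2 and Axl and overlap for the others.

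Of the coactivators, Wwtr1 was called slightly higher in KE and Yap1 was not called. Wwtr1 (ENSMUSG00000027803, minus strand of chr3:57363067-57483331 of GRCm39), which encodes TAZ, was 7422, 7183 and 8072 in KE and 6378, 5942 and 6794 in NT. Every KE culture was above every NT culture. It rose by 18.6%, from 6371 ± 426 (SD, n = 3) in NT to 7559 ± 460 (SD, n = 3) in KE, with a log2FC of 0.25, a standard error of 0.07 and an adjusted p of 0.0096 from limma. Yap1 (ENSMUSG00000053110, minus strand of chr9:7932000-8004661) was 4809, 5090 and 4885 in KE and 4465, 4426 and 4614 in NT. Here too the groups did not overlap, yet the difference was small. Its log2FC was 0.13 with a 95% interval of 0.01 to 0.25 before adjustment, and its adjusted p of 0.059 from limma missed the threshold. The Wwtr1 to Yap1 ratio of levels per kilobase was 1.12 to 1.31 in KE and 1.06 to 1.17 in NT, and these ranges overlap. The KE to NT ratio of means was 1.19 for Wwtr1, 1.09 for Yap1 and 1.36 for the summed astrocyte markers, whose part in the result was not tested.

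Tead1 (ENSMUSG00000055320, plus strand of chr7:112278522-112506014), a TEAD factor that recruits YAP and TAZ to DNA, was 7068, 6897 and 8441 in KE and 8507, 8055 and 8756 in NT. KE replicate 3 lay within the NT range, and the other KE cultures lay below it. The log2FC was -0.18 (95% interval -0.35 to -0.01) with an adjusted p of 0.07 from limma. It was called lower under 3 of 14 alternatives. Without KE replicate 3 the log2FC was -0.27 and the adjusted p was 0.0048, and with all 6 cultures under quantile normalization they were -0.20 and 0.045. The other TEAD factors moved in different directions. Tead2 fell from 3524 ± 340 to 2449 ± 222 (log2FC -0.52), while Tead3 rose from 418 ± 27.5 to 546 ± 39.1 (log2FC 0.38, SD over n = 3 in each group). Tead4 was 37.3 to 48.3 in KE and 20.6 to 33.8 in NT, with a log2FC of 0.65 and an adjusted p of 0.057, and was called under 3 of the alternatives, as when NT replicate 3 was left out (adjusted p = 0.03). Per kilobase of exon, Tead1 made up 47.8% to 55.8% of the 4 TEAD levels in KE and 44.3% to 49.7% in NT, and Tead2 made up 36.3% to 44.5% in KE and 45.4% to 50.8% in NT. The share of Tead2 was below every NT value in all 3 KE cultures, while that of Tead1 overlapped.

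Of the cofactors that compete with YAP and TAZ for TEAD, Vgll4, which represses TEAD targets, rose from 1520 ± 37.9 to 1844 ± 72 (SD, n = 3, log2FC 0.28). Vgll3 fell from 697 ± 138 to 446 ± 13.1 (SD, n = 3, log2FC -0.62). Vgll1 was at 0 in all 6 cultures, and Vgll2 did not exceed 2.87. Of the 7 TEAD and VGLL genes besides Tead1, 5 were tested, of which 2 were higher, 2 were lower and 1 was not called, where 25.3% of all genes were higher and 26% were lower.

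The regulators in the list are Lats2, a kinase that phosphorylates YAP and TAZ, Amotl2, an angiomotin that holds YAP at junctions, and Ajuba, a LIM protein that binds and restrains the LATS kinases. Lats2 and Amotl2 are also induced by YAP, which closes a negative feedback loop. Lats2 (ENSMUSG00000021959, minus strand of chr14:57926960-57995845) was 3210, 3312 and 3570 in KE and 3258, 3449 and 3950 in NT. The groups overlapped, and the log2FC of -0.08 had a 95% interval of -0.24 to 0.09 (adjusted p = 0.44 from limma). Amotl2 (ENSMUSG00000032531, plus strand of chr9:102593836-102610617) was 1188, 1159 and 1166 in KE and 1067, 1355 and 1348 in NT. NT replicate 1 lay below all KE cultures and the other NT cultures lay above them, which left a log2FC of -0.09 (95% interval -0.30 to 0.11, adjusted p = 0.42). Without NT replicate 1 the log2FC was -0.21 and the adjusted p was 0.038.

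Ajuba (ENSMUSG00000022178, minus strand of chr14:54804787-54815027) was 938, 997 and 884 in KE and 1150, 1410 and 1377 in NT. All KE values lay below all NT values. It fell by 28.4%, from 1312 ± 141 (SD, n = 3) to 939 ± 56.4 (SD, n = 3), a log2FC of -0.48 with a standard error of 0.09 and an adjusted p of 0.001 from limma. Limd1, a related LIM protein that also binds LATS kinases, fell with a log2FC of -0.27, from 2743 ± 85.5 to 2283 ± 195 (SD, n = 3).

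The rest of the Hippo pathway held called genes at about the rate of the whole table. Of 14 kinases and scaffolds, all tested, 7 were called, where 51.3% of all genes were. Of these 2 were higher and 5 were lower, with a median log2FC of -0.10 and a range from -0.44 to 0.26. The higher count was 1 when either KE replicate 1, 2 or 3 or NT replicate 1 or 3 was left out. Stk4, which encodes the upstream kinase MST1, fell (log2FC -0.31, 2252, 2259 and 2218 in NT and 1740, 1765 and 1923 in KE). Its paralog Stk3 (MST2) had a log2FC of 0.07 with an interval of -0.13 to 0.27. Sav1, the scaffold of these kinases, rose (log2FC 0.26), and Mob1a, the LATS coactivator, fell (log2FC -0.24). Lats1 (log2FC 0.07, interval -0.08 to 0.23) and Nf2, the upstream regulator merlin (-0.01, interval -0.15 to 0.13), were not called. For both, the sign depended on which culture was left out. Lats2 was 1.40 to 1.54 times Lats1 per kilobase in KE and 1.51 to 1.81 times in NT.

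Among 6 other proteins that bind YAP, TAZ or the LATS kinases, 4 were called, where 51.3% of all genes were, and of these 2 were higher and 2 were lower. Amot, an angiomotin, fell from 1681 ± 115 to 1089 ± 109 (SD, n = 3, log2FC -0.63). Its paralog Amotl1, the most abundant of the 3 angiomotins in normalized counts, was 10196 to 11298 in KE and 8924 to 10063 in NT (log2FC 0.18, adjusted p = 0.035). This call was lost without KE replicate 2 or 3 or NT replicate 1 or 2, with adjusted p up to 0.13, and also with no filter on low genes (0.051) or no variance trend (0.097), and the count of higher genes was then 1. Ptpn14, a phosphatase that binds YAP and is also listed as a target, rose (log2FC 0.41). Amotl2 made up 11.6% to 13.0% of the angiomotin level per kilobase in KE and 12.3% to 14.3% in NT.

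**Figure D3:**
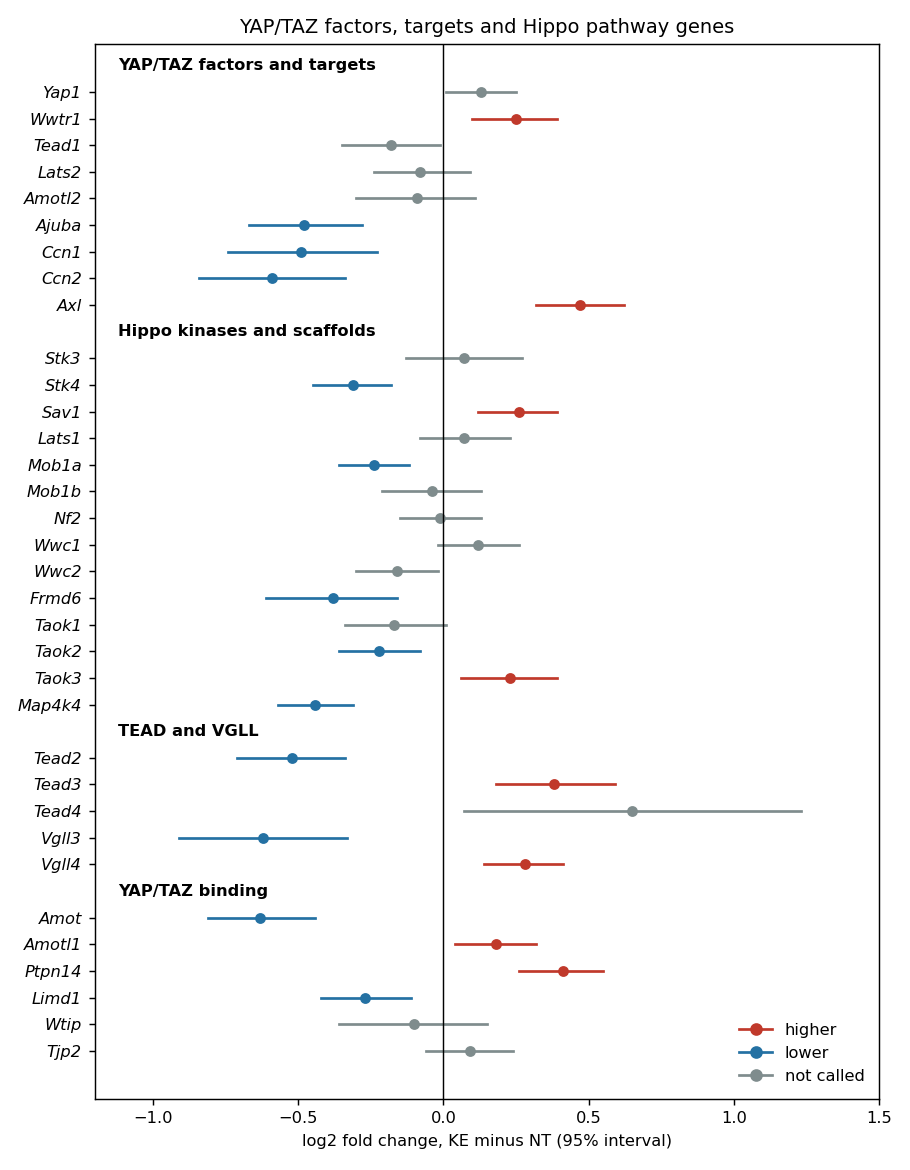
Log2FC (x axis, KE minus NT) with its 95% interval from limma for the 9 tested genes and for the Hippo kinases, TEAD and VGLL factors and binding proteins. Colours give the call after adjustment over 15280 genes. Calls in both directions occur in each set, and the intervals of Yap1 and Tead1 end close to 0.

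The matricellular targets Ccn1 (CYR61) and Ccn2 (CTGF), the 2 most used readouts of YAP and TAZ, were lower in KE. They encode secreted proteins of the CCN family that bind integrins and the matrix. Ccn2 (ENSMUSG00000019997, plus strand of chr10:24471333-24474900) was 4680, 5139 and 4698 in KE and 6087, 7113 and 8911 in NT. It fell by 34.3%, from 7370 ± 1430 (SD, n = 3) to 4839 ± 260 (SD, n = 3), with a log2FC of -0.59, a standard error of 0.11 and an adjusted p of 0.0011 from limma. Ccn1 (ENSMUSG00000028195, minus strand of chr3:145352720-145355738) was 2314, 2519 and 2299 in KE and 2715, 3367 and 4028 in NT. It fell by 29.5%, from 3370 ± 657 (SD, n = 3) to 2377 ± 123 (SD, n = 3), with a log2FC of -0.49, a standard error of 0.12 and an adjusted p of 0.0047 from limma. For both genes every KE culture was below every NT culture.

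The NT cultures differed among themselves far more than the KE cultures in these 2 genes. The coefficient of variation of Ccn2 was 19.4% in NT and 5.38% in KE, and that of Ccn1 was 19.5% in NT and 5.16% in KE. For the 6432 genes with a mean of at least 1000, the median coefficient of variation was 4.77% in NT and 5.33% in KE. The main fit pulls the error of both genes toward that of genes of similar level. With no variance trend the adjusted p from limma was 0.019 for Ccn2 and 0.04 for Ccn1. Both genes were lowest in NT replicate 1 and highest in NT replicate 3, an order that 18.1% of all tested genes shared. Without NT replicate 1 or NT replicate 3, both genes remained lower, with log2FC between -0.72 and -0.44 for Ccn2 and between -0.63 and -0.35 for Ccn1 over all alternatives. The Ccn2 to Ccn1 ratio of levels per kilobase was 1.29 to 1.30 in KE and 1.35 to 1.43 in NT, so the ratio was lower in every KE culture. The summed endothelial markers, most of their level from Flt1, were 295 to 333 in KE and 437 to 541 in NT. Of these markers, Cdh5 did not exceed 5.94 and Cldn5 did not exceed 2.07 in any culture. The KE to NT ratio of the summed markers was 0.637 for endothelial, 0.125 for microglia and 0.758 for neuronal genes. It was 0.8 for oligodendrocyte lineage, 1.05 for mesenchymal and 1.36 for astrocyte genes. The part of any of these cell types in the fall of both genes was not tested.

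Of the other CCN genes, Ccn5, a family member that lacks the C-terminal domain of the others, differed most. It was 30.6, 26.3 and 30.2 in KE and 153, 299 and 328 in NT, and fell by 88.8% (log2FC -3.05, adjusted p = 3.4e-06 from limma). Ccn3 was 98.5 to 115 in KE and 92.0 to 150 in NT (log2FC -0.22, interval -0.65 to 0.21), and was called lower only when NT replicate 1 was left out (adjusted p = 0.048), which made the count of lower genes 2 in place of 1 of 3 tested, where 26% of all genes were lower. Ccn4 was 204 to 249 in KE and 253 to 300 in NT (log2FC -0.27, adjusted p = 0.088). Ccn6 did not exceed 1.04 in any culture.

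Ankrd1 (ENSMUSG00000024803, minus strand of chr19:36089352-36097506), which encodes a muscle ankyrin repeat protein and is a strong YAP target in many cell types, was listed at 0 in all 3 KE cultures and at 1.93, 1.06 and 0 in NT. It is at the level of single reads and did not pass the filter on low genes, so no direction can be given and no test was made.

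Axl (ENSMUSG00000002602, minus strand of chr7:25456535-25488329), a receptor tyrosine kinase of the TAM family that is activated by GAS6, went the other way from Ccn1 and Ccn2. It was 6130, 5559 and 6170 in KE and 3932, 4551 and 4430 in NT, so all KE values were above all NT values. It rose by 38.3%, from 4304 ± 328 (SD, n = 3) to 5953 ± 342 (SD, n = 3), a log2FC of 0.47 with a standard error of 0.07 and an adjusted p of 0.00021 from limma. Its ratio of means was 1.38, beside 1.36 for the summed astrocyte markers and 0.125 for the summed microglia markers, whose part in the rise of Axl was not tested. Single astrocyte markers had ratios from 0.664 (S100b) and 0.728 (Gja1) to 1.82 (Gfap), and Slc1a3, the most abundant of them, had 1.19.

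The related receptors did not rise with Axl. Tyro3 fell (log2FC -0.25), and Mertk, which microglia also express, fell from 485 ± 26.9 to 272 ± 17.2 (SD, n = 3, log2FC -0.83). Axl made up 73.3% to 77.7% of the summed level per kilobase of the 3 receptors in KE and 60.2% to 64.7% in NT. Of the ligands, Pros1 fell (log2FC -0.20), and Gas6 was 4380 to 4913 in KE and 4184 to 4664 in NT (log2FC 0.07, interval -0.07 to 0.21). The call of Tyro3 was lost without KE replicate 1 or 3 or NT replicate 1, and that of Pros1 without KE replicate 1 or 2 or NT replicate 1 and with no variance trend (adjusted p = 0.054). Of these 4 receptors and ligands besides Axl, 3 were thus lower and none was higher, where 26% of all genes were lower and 25.3% were higher. The count of 3 was 1 without KE replicate 1 or NT replicate 1.

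Per kilobase of exon in Gencode vM39, Ccn2 and Ccn1 had the highest levels of the 10 genes in both groups. In NT they averaged 2313 ± 449 and 1658 ± 323 (SD, n = 3) normalized counts per kilobase, and their ranges overlapped. They were followed by Tead1 (622 ± 26.2), Wwtr1 (538 ± 36), Yap1 (480 ± 10.5) and Axl (469 ± 35.7). Ajuba (345 ± 37.2), Lats2 (339 ± 34.1) and Amotl2 (178 ± 23.3) came last before Ankrd1. Of these neighbours in NT, Ccn2 and Ccn1, Yap1 and Axl, and Ajuba and Lats2 overlapped. In KE the order was Ccn2 (1518 ± 81.7), Ccn1 (1170 ± 60.4), Axl (648 ± 37.2), Wwtr1 (639 ± 38.9), Tead1 (550 ± 62.4) and Yap1 (526 ± 15.5), followed by Lats2, Ajuba and Amotl2. Axl thus moved from the 6th place in NT to the 3rd in KE, although its range in KE overlapped that of Wwtr1, which in turn overlapped that of Tead1. Lengths are those of all annotated exons together, so genes with long or rarely used exons appear lower than they are.

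**Figure D4:**
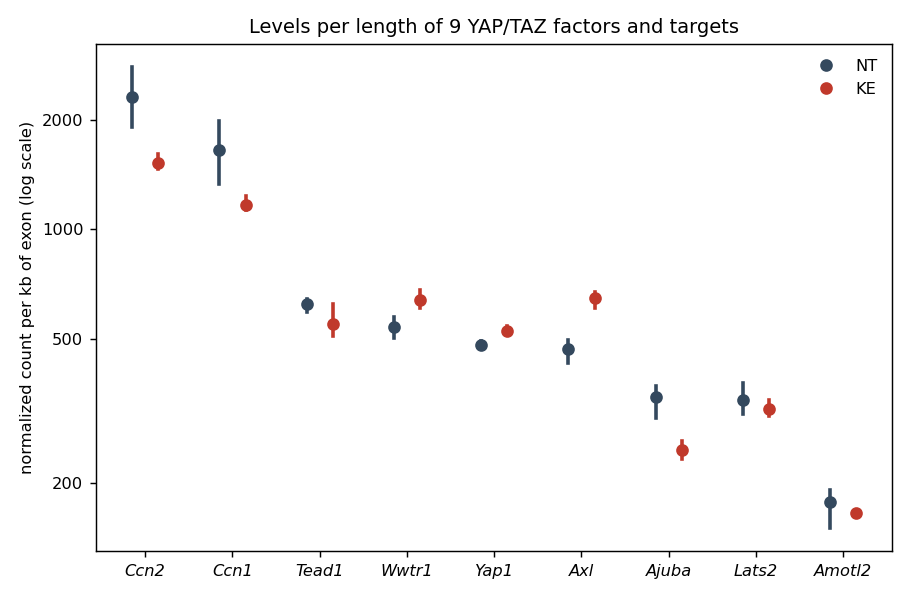
Normalized count per kilobase of exon (y axis, log scale) of 9 genes in NT and KE, ordered by the NT mean. Points are means of 3 cultures and bars run from the lowest to the highest culture. Ccn2 and Ccn1 are highest in both groups, and Axl changes its place most.

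Of 16 further genes of a YAP/TAZ target signature, 15 were tested, and 9 were higher, 1 was lower and 5 were not called. Of all genes tested, 25.3% were higher and 26% were lower. The median log2FC of the 15 was 0.23, beside 0.002 over all genes, and the list as a whole was not tested. Igfbp3, an IGF-binding protein and the most abundant of the list, was 113345, 112554 and 123794 in KE and 55265, 52746 and 58411 in NT (log2FC 1.07). Gadd45a, a growth arrest and DNA damage gene, had the largest rise, from 420 ± 64.8 to 1410 ± 73.4 (SD, n = 3, log2FC 1.76, adjusted p = 2.1e-07 from limma). F3, which encodes tissue factor, rose with a log2FC of 0.66, and Arhgef17 with one of 0.65. Myof, a ferlin of the plasma membrane that was picked after its values were seen, rose from 2220 ± 132 to 4391 ± 441 (SD, n = 3, log2FC 0.98). The single lower gene was Nuak2, a kinase of the AMPK family (log2FC -0.34). The number of higher genes was 7 to 9 when 1 culture was left out, and 7 with no variance trend. Without KE replicate 2, and with no variance trend, the number of lower genes was 2. Many of these genes are also known to be induced by other pathways.

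SRF is a factor that shares targets with YAP and TAZ, many of them in the actin cytoskeleton. Of 14 SRF and actin genes, 13 were tested, and 2 were higher, 8 were lower and 3 were not called, where 25.3% of all genes were higher and 26% were lower. Without NT replicate 3 the number of lower genes was 5. The median log2FC of the 13 was -0.29, beside 0.002 over all genes, and this list as a whole was not tested either. Acta2, the smooth muscle actin of contractile cells, was 679, 632 and 641 in KE and 1174, 1833 and 2074 in NT (log2FC -1.34, adjusted p = 5.4e-05 from limma). Tagln (log2FC -1.17) and Cnn1 (log2FC -1.19), calponin-related genes of the same contractile program that were picked after their values were seen, fell by 56.4% and fell by 57.3%. All 3, like Ccn1 and Ccn2, were lowest in NT replicate 1 and highest in NT replicate 3. Flna, the crosslinker filamin A and the most abundant of the list, fell from 41251 ± 2005 to 32736 ± 1684 (SD, n = 3, log2FC -0.33). The focal adhesion gene Vcl (log2FC 0.40) and the tropomyosin gene Tpm1 (log2FC 0.27) rose. The mesenchymal markers, which include pericyte and fibroblast genes, gave a summed level of 2778 to 2924 in KE and 2502 to 3073 in NT, and 4 were called higher and 2 lower of 8 tested.

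**Figure D5:**
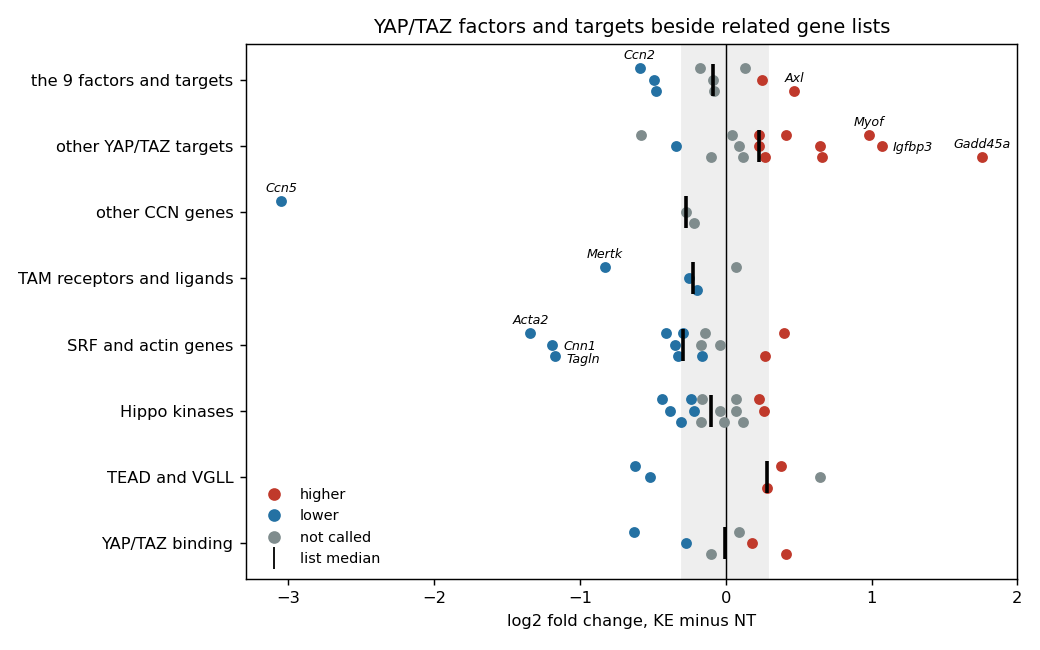
Log2FC (x axis, KE minus NT) of each tested gene in the 9 factors and targets and in 7 related lists, coloured by call. Black ticks are list medians, the vertical line is the median of all 15280 genes, and the grey band spans their middle 50% (-0.302 to 0.293). The other targets lie mostly to the right of the line and the SRF and actin genes mostly to the left.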

How the data were processed

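RNA-seq of cultured mouse cortical astrocytes was analysed in 3 KE and 3 NT cultures, grouped by the sample titles. The authors deposited a normalized signal per gene and culture, that is Salmon gene counts divided by size factors. The submitters' processing notes name Trim Galore, STAR, Salmon and DESeq2 and list GRCh38, whereas the paper's RNA-seq methods give GRCm39 with Gencode vM28 for mouse. All gene identifiers are those of mouse. The methods mention an adjustment for batches without naming them, so none was modelled. Reads were not recovered, since only 75.2% to 77.7% of values under 20 came within 0.1 of a multiple of the most frequent low value, and a count model was not used. That low value put the depth at about 24500000 (KE replicate 2) to 34100000 reads (KE replicate 1). No counting error is therefore given, and the spread between cultures is the only error. Scaling of this kind removes depth and assumes that most genes are unchanged.

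Values were compared as log2(normalized count + 1) with limma 3.58.1 in R 4.3.3 (group only, variance trend). The 15280 genes averaging 10 or more entered the fit. On simulated data with 15280 genes the fit recovered 96% of changes of 1 and 71% of changes of 0.5 on the log2 scale, with 14 false calls. Only 100 genes were changed at each size, and every gene was given the same extra spread beyond counting. In the data 7844 genes were called and the spread differed between genes, so these figures do not give the performance on the data. Coordinates and exon lengths came from Gencode vM39 on GRCm39, which holds 54749 of the 55357 identifiers, and promoters from RefSeq on GRCm38.p6. The 10 genes and the related lists were chosen with earlier results of these data known. The genes named are the 10, pathway genes listed by name, all CCN and TAM genes, and, in the lists of other targets and of SRF and actin genes, the 3 with the highest mean and the largest called rise and fall. Alternatives were other pseudocounts, filters, scalings, no trend, a block by replicate number, and leaving out each culture.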

Additional observations from a re-analysis of the deposited data

How the results depend on the processing

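The 9 tested genes were compared under 14 alternatives each, and 121 of these 126 comparisons kept the direction and the side of the threshold. The numbers of genes higher (2) and lower (3) among the 10 did not move by more than 1.5 times under any of them. Of the 5 exceptions, Tead1 was called lower with quantile normalization (log2FC -0.20, adjusted p = 0.045), with the replicate number as a block (log2FC -0.18, adjusted p = 0.024) and without KE replicate 3. Its log2FC was -0.27 to -0.13 over the left-out cultures, with adjusted p from 0.0048 to 0.22. Amotl2 was called without NT replicate 1 (log2FC -0.21 to -0.03 over the left-out cultures, adjusted p 0.038 to 0.8), and Lats2 had a log2FC of 0 without NT replicate 3 (-0.14 to 0). The cause was not tested. The highest adjusted p over the alternatives was 0.011 for Ajuba, 0.019 for Ccn2, 0.04 for Ccn1, 0.0062 for Axl and 0.047 for Wwtr1, and that of Yap1 was 0.053 to 0.15.

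The deviations of KE and NT cultures with the same number were almost unrelated (r of 0.059 to 0.066 across genes, with each culture closest to its own number), and the labels give no pairing, so the block is an alternative only. With the block 8046 genes were called in place of 7844, and among the 10 genes it changed the call of Tead1 only. Of 224 comparisons for counts of called genes, 206 stayed within 1.5 times. With no filter on low genes, and without the variance trend, the number of higher binding proteins was 1. Without the trend the numbers of lower genes were 2 among other targets and 5 among SRF and actin genes. Over the left-out cultures, the number of higher Hippo kinases and scaffolds was 1 to 2, of higher binding proteins 1 to 2, of lower other targets 1 to 2, of lower CCN genes 1 to 2, of lower TAM genes 1 to 3 and of lower SRF and actin genes 5 to 8. Nf2 ranged from -0.07 to 0.02 and Lats1 from -0.01 to 0.12. Where a group is left with 2 cultures, its spread is pooled with that of the other. For Ankrd1, depth allows no statement on a difference.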
